A study of Homo sapiens with 4 samples.

Results

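Glycolysis and the hypoxia response are described here through 40 genes in a human multiple myeloma line, RPMI 8226, after an antisense oligonucleotide was used to lower the long noncoding RNA LINC01432. The genes were chosen by symbol, and each matched 1 row of the 78932 gene rows in the deposited count table. They fall into 3 subunits of the hypoxia-inducible factors (HIF), 4 genes of HIF turnover, 4 transporters of glucose or lactate, 17 glycolytic enzymes, 3 regulators of glycolysis and 9 other HIF targets. Cells were transfected with a control locked nucleic acid (LNA) oligonucleotide (2 libraries) or with an LNA against LINC01432 at 50 nM (2 libraries), and RNA was taken after 72 h. The labels state no separate dose for the control LNA, name no genotype that differs between the groups, and use 1 oligonucleotide per group. RPMI 8226 is a single line, so nothing here extends to other myeloma cells. Separate cultures for the libraries of a group are not mentioned in the labels, so p-values measure variation among these 4 libraries alone, possibly technical in origin.

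Glycolysis splits glucose into pyruvate through a chain of cytosolic enzymes, most of which exist as several isozymes encoded by separate genes. Many of those genes are targets of HIF, a dimer of an oxygen-labile alpha subunit (HIF1A or EPAS1) and the stable partner ARNT. When oxygen is present, the prolyl hydroxylases EGLN1, EGLN2 and EGLN3 mark the alpha subunit and VHL, the recognition subunit of a ubiquitin ligase, directs it to the proteasome. HIF activity is therefore set mostly at the level of the protein, which RNA-seq does not measure. Plasma cell tumours grow in the poorly oxygenated bone marrow and are known for high glycolytic activity.

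The libraries held 29161298 and 24493148 gene counts with control LNA and 20873393 and 26185342 with LINC01432 LNA, where 3 counts were worth 0.103 to 0.140 CPM (normalized counts, each count divided by the TMM-scaled size of its library). LINC01432 (ENSG00000234435, chr20:22054090-22074654, GRCh38) was measured at 20.5 and 17.9 CPM in the control libraries and at 8.997 and 9.904 CPM in the LINC01432 LNA libraries. Its log2 fold change was -1.02 (SE 0.11) with an adjusted p of 0.000228 by edgeR. The variance between libraries was 3.85 times that of counting alone for the control pair and 12.4 times for the LINC01432 LNA pair. As in any bulk RNA, fewer cells expressing a gene and less RNA per cell cannot be told apart. Plasma cell markers were abundant, with 2330 to 2780 CPM summed over 9 genes. The summed level was 1.31 to 2.65 CPM for 6 T and NK cell markers, 3.43 to 5.43 CPM for 6 myeloid markers, of which LYZ and S100A8 had no counts, and 4.22 to 7.17 CPM for 6 fibroblast and endothelial markers. These 3 sums were higher in both LINC01432 LNA libraries than in both control libraries. Epithelial markers summed to 99.2 to 118 CPM, nearly all of it EPCAM and KRT18, with KRT19 at 0. The epithelial sum and the plasma cell sum were lower in both LINC01432 LNA libraries than in both controls, and of the 9 plasma cell markers 3 were called lower and 1 higher. The part of these markers in the results was not tested.

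All 40 genes passed the filter on low counts, and 7 changed. VHL, EGLN1, the lactate exporter SLC16A3, and the glycolytic enzymes ALDOA and PGAM1 rose with LINC01432 LNA, whereas NDRG1 and BNIP3L, targets of HIF outside glycolysis, fell. Calls are at an edgeR adjusted p under 0.05 over all 18680 genes tested. The 7 called genes are 17.5% of the 40, against 11.9% of all tested genes; 5 were higher (background 7.5%) and 2 lower (background 4.37%). The median log2 fold change was -0.07 over the 40 genes and 0.01 over all tested genes, and no gene of the 40 changed as much as 2-fold. For 27 of the 40 both LINC01432 LNA libraries lay on the same side of both controls, 12 above and 15 below, beside 54.1% of all tested genes (28.2% above and 25.9% below). The number of calls depended on the library set, in the members as in all genes. Without control library 1 there were 3 called members (2 higher, 1 lower), or 7.5% beside 3.82% of all genes tested in that fit, and without control library 2 there were 4 (3 higher, 1 lower), or 10% beside 5.27%. Without LINC01432 LNA library 1 there were 17 (10 higher, 7 lower), or 42.5% beside 26.4%, and without LINC01432 LNA library 2 there were 19 (6 higher, 13 lower), or 47.5% beside 21.6%. Such a fit takes the spread of the lone library from the other pair.

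**Figure D1:**
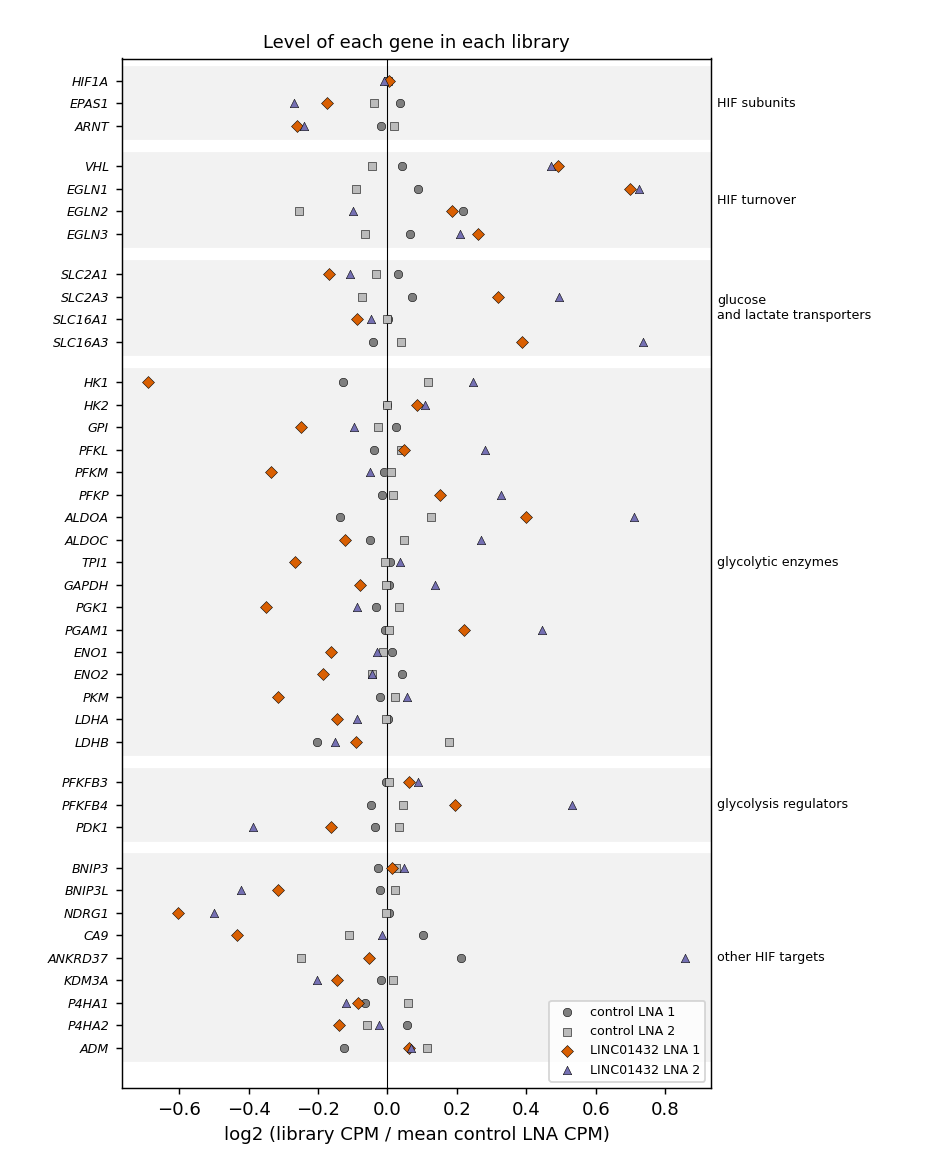
Level of each of the 40 genes in each library, as log2 of the library's CPM over the mean of the control LNA libraries (x axis), with genes grouped by role (y axis) and 1 symbol per library. EGLN1 and VHL sit to the right and NDRG1 to the left in both LINC01432 LNA libraries, while for most glycolytic enzymes LINC01432 LNA library 2 lies to the right of library 1.

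The genes differed widely in abundance. Levels of different genes are compared here as control mean CPM per kb of exon, using the union of all annotated exons, which is longer than any single transcript. ENO1, the enolase, was highest at 1170 CPM per kb, followed by GAPDH at 993, PKM, the pyruvate kinase of tumours, at 456, TPI1 (triose phosphate isomerase) at 368 and LDHA, which reduces pyruvate to lactate, at 234. In CPM, ENO1 was at 6227 and 6118 with control LNA and at 5518 and 6041 with LINC01432 LNA. The 17 glycolytic enzymes together held 1.89% and 1.90% of the gene counts with control LNA and 1.72% and 1.87% with LINC01432 LNA, and 4 of them supplied 76.0% to 76.5% of these counts. HK1 was lowest at 0.0954 CPM per kb, with 8 to 18 counts per library. EGLN2, ANKRD37 and SLC2A3 were also below 0.5 CPM per kb, so that differences in these 4 genes were weakly measured.

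**Figure D2:**
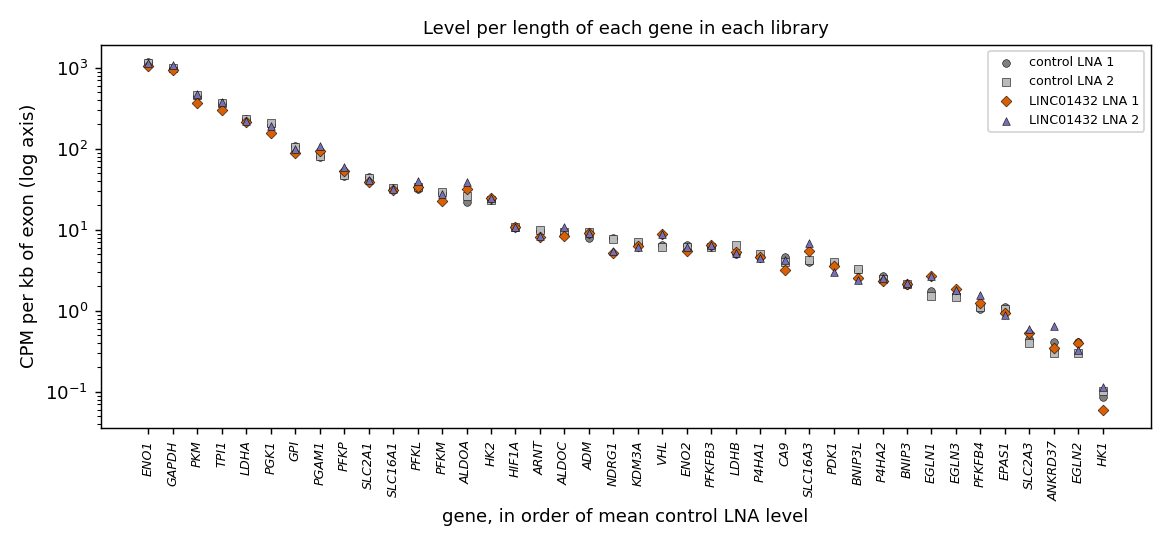
CPM per kb of exon (log axis) of each of the 40 genes in each library, in order of the mean of the control LNA libraries (x axis). Levels run from 1170 for ENO1 to 0.0954 for HK1, and the 4 libraries of a gene lie close together beside this range.

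Promoter stretches of 6 members are shown because they carry the core sequence that HIF binds, ACGTG or GCGTG, in genes that rose and in genes that did not. The sequences are from RefSeq promoter windows (GRCh38.p14), 250 bases before to 50 after a start site, read 5′ to 3′ along the gene. Capitals mark each match to either core on either strand, and CACGTG counts on both strands. Printed are EGLN1, ALDOA and SLC16A3, which rose, and LDHA, PGK1 and BNIP3, which were not called.
EGLN1, chr1:231422288-231422317, minus strand, an exon in GENCODE 29: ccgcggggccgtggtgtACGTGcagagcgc
ALDOA, chr16:30065535-30065594, plus strand, an intron in GENCODE 29: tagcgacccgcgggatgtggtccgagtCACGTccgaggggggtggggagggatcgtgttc
SLC16A3, chr17:82228953-82229012, plus strand, an intron in GENCODE 29: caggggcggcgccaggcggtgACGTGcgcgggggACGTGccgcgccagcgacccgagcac
LDHA, chr11:18394328-18394387, plus strand, just before the annotated gene: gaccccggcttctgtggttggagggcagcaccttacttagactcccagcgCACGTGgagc
PGK1, chrX:78104024-78104083, plus strand, an intron in GENCODE 29: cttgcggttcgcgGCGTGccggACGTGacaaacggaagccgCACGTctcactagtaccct
BNIP3, chr10:131982015-131982074, minus strand, just before the annotated gene: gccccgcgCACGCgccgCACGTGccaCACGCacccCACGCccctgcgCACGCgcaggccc
The RefSeq table held 64 windows for 35 of the 40 genes; BNIP3L, NDRG1, SLC16A1, SLC2A3 and VHL had no entry. At least 1 core was found in 42 of these windows, or 65.6%, against 48.4% of the 35116 windows of all genes. Over windows of glycolytic enzymes the share was 62.2% (23 of 37), and over those of the other HIF targets 87.5% (7 of 8). Many members are known HIF targets, so the excess is given as a description only. The base composition of the windows was not compared, and the cause of the excess was not tested. PGAM1, which rose, had no core in its window, and BNIP3, with 6 matches in 60 bases, was at 11.1 and 11.5 CPM with control LNA and at 11.4 and 11.7 CPM with LINC01432 LNA.

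None of the HIF subunits was called. HIF1A, the alpha subunit induced in most cells, was measured at 55.7 and 55.9 CPM in the control libraries and at 56.0 and 55.4 CPM in the LINC01432 LNA libraries. The groups of HIF1A overlapped (log2 fold change -0.00, SE 0.08, edgeR adjusted p = 0.992). ARNT, the shared partner, was at 63.5 and 65.3 CPM with control LNA and at 53.7 and 54.5 CPM with LINC01432 LNA. Both treated libraries were thus below both controls, but the log2 fold change of -0.25 (SE 0.08) did not pass (edgeR adjusted p = 0.0609). With the replicate number as a block ARNT was called lower (-0.25, edgeR adjusted p = 0.0185). With GC correction its log2 fold change was -0.16 (edgeR adjusted p = 0.161). EPAS1, the HIF-2 alpha subunit, was at 1.07 CPM per kb in controls beside 10.8 for HIF1A, and was at 8.04 and 7.62 CPM against 6.95 and 6.50 CPM (log2 fold change -0.22, SE 0.13, edgeR adjusted p = 0.319).

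Of the 4 genes that remove HIF alpha, EGLN1 and VHL rose and 0 fell, beside 7.5% of all tested genes called higher and 4.37% lower. EGLN1 (ENSG00000135766, chr1:231363751-231425044), which encodes the main oxygen-sensing prolyl hydroxylase, was at 12.6 and 11.2 CPM with control LNA and at 19.3 and 19.7 CPM with LINC01432 LNA. The groups did not overlap, and EGLN1 rose 1.63-fold, from 11.9 ± 1.04 to 19.5 ± 0.249 CPM (SD, n = 2; log2 fold change 0.71, SE 0.10, edgeR adjusted p = 0.00126). It remained called under each of 14 alternatives. VHL (ENSG00000134086, chr3:10141008-10152220) was at 27.4 and 25.8 CPM with control LNA and at 37.5 and 37.0 CPM with LINC01432 LNA. It rose 1.40-fold (log2 fold change 0.48, SE 0.08, edgeR adjusted p = 0.00369). Its call was lost without control library 1 (log2 fold change 0.51, adjusted p = 0.0526) and without control library 2 (0.43, adjusted p = 0.120). EGLN3, itself a strong HIF target in many cells, was at 11.99 and 10.96 against 13.8 and 13.3 CPM and did not pass (log2 fold change 0.23, adjusted p = 0.201). EGLN2, the third hydroxylase, had 48 to 79 counts per library, with overlapping groups. EGLN1 made up 46.0% and 46.2% of the summed CPM per kb of the prolyl hydroxylases with control LNA and 53.9% and 55.9% with LINC01432 LNA.

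Among the transporters, SLC16A3 was called and the main carriers were not. SLC16A3 (MCT4, ENSG00000141526, chr17:82228397-82261129), which exports lactate from glycolytic cells, was at 36.5 and 38.6 CPM with control LNA and at 49.1 and 62.6 CPM with LINC01432 LNA. It rose 1.49-fold (log2 fold change 0.57, SE 0.11, edgeR adjusted p = 0.00605), and the treated libraries differed from each other by more than the controls did. Its exons have a GC content of 66.04%, in the highest decile of tested genes, whose median log2 fold change was 0.37, and after GC correction its own was 0.08 and not called (adjusted p = 0.616). Leaving out LINC01432 LNA library 2 gave 0.37, still called. SLC16A1 (MCT1), the more abundant lactate carrier, was at 177 and 177 CPM against 166 and 171 CPM (log2 fold change -0.07, adjusted p = 0.651). SLC2A1 (GLUT1), the main glucose transporter here, was at 213 and 204 CPM against 185 and 193 CPM; the treated libraries were lower, but the log2 fold change of -0.14 did not pass (adjusted p = 0.308). SLC2A3 (GLUT3) stayed below 4 CPM in every library (log2 fold change 0.41, adjusted p = 0.217).

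Of the 17 glycolytic enzymes, 2 rose, 0 fell and 15 were not called, or 11.8% called beside the background of 11.9%. The number of calls depended on the library set, as in all tested genes, and so did the direction. With all libraries 7 log2 fold changes were positive and 10 negative. Without LINC01432 LNA library 1, 10 were positive and 7 negative (median 0.04), and without LINC01432 LNA library 2, 5 and 12 (median -0.16). Without control library 1 they were 7 and 10 (median -0.10), and without control library 2, 8 and 9 (median -0.005). ALDOA (ENSG00000149925, chr16:30064164-30070457), the aldolase that cleaves fructose 1,6-bisphosphate, was at 86.1 and 103 CPM with control LNA and at 125 and 155 CPM with LINC01432 LNA. The groups did not overlap, and ALDOA rose 1.48-fold, from 94.6 ± 12.1 to 139.8 ± 21.03 CPM (SD, n = 2; log2 fold change 0.56, SE 0.11, edgeR adjusted p = 0.00809). Without control library 1 the log2 fold change was 0.42 and not called (adjusted p = 0.195). Of the exonic bases of ALDOA 53.5% overlap other annotated genes, most of them ENSG00000285043 on the same strand, so its count is uncertain. ALDOA had 2506 to 3904 counts per library and this partner 31 to 45; whether reads in the shared exons were dropped is not known. PGAM1 (ENSG00000171314, chr10:97426160-97433441), a phosphoglycerate mutase, was at 205 and 207 CPM with control LNA and at 240 and 281 CPM with LINC01432 LNA. It rose 1.26-fold (log2 fold change 0.34, SE 0.09, edgeR adjusted p = 0.0323). The call of PGAM1 was lost without control library 1 (0.31, adjusted p = 0.473) or control library 2 (0.33, adjusted p = 0.414), and without LINC01432 LNA library 2 its log2 fold change was 0.20, still called.

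The most abundant enzymes were not called. ENO1 had a log2 fold change of -0.095 (SE 0.10, edgeR adjusted p = 0.601), and its treated libraries lay below both controls. GAPDH was at 2970 and 2948 CPM with control LNA and at 2800 and 3256 CPM with LINC01432 LNA, so that the controls fell between the treated libraries (log2 fold change 0.03, adjusted p = 0.882). PKM was at 3847 and 3962 CPM against 3139 and 4057 CPM, and TPI1 at 997 and 988 CPM against 826 and 1018 CPM, with overlapping groups in both cases (log2 fold changes -0.12 and -0.11, adjusted p = 0.598 and 0.585). LDHA was at 1456 and 1451 CPM against 1314 and 1367 CPM, below both controls (log2 fold change -0.12, adjusted p = 0.439). The other enzymes (HK1, HK2, GPI, PFKL, PFKM, PFKP, ALDOC, PGK1, ENO2 and LDHB) had log2 fold changes between -0.21 and 0.24. The sign of PFKL depended on GC correction: its log2 fold change was 0.17 (adjusted p = 0.290) without and -0.24 (adjusted p = 0.0487) with it, at a GC content of 64.6%.

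The LINC01432 LNA libraries differed from each other in these enzymes. In library 2, 16 of the 17 were higher than in library 1, with a median log2 difference of 0.23 on the log2(CPM + 0.5) scale, while 9323 of all 18680 tested genes were higher in library 2 and their median difference was 0. The control libraries differed by a median of 0.02 over the 17 enzymes. Against the control mean the median of the enzymes was -0.15 in LINC01432 LNA library 1 and 0.06 in library 2. The direction of this group therefore depended on the library: the median log2 fold change was -0.11 with all libraries, 0.04 without LINC01432 LNA library 1 and -0.16 without library 2.

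Counts of some enzymes may be shared with near-identical copies. The 65 rows of GAPDH pseudogenes held 9.2% to 10.2% as many counts as GAPDH itself, the 2 of ALDOA 9.35% to 14.5% and the 4 of TPI1 4.19% to 4.56%. For LDHB 3 pseudogene rows reached 27.4% to 32.6% of the gene's own counts, and for BNIP3 44 rows reached 22.8% to 32.4%. For PGAM1 and ENO1 the share was at most 1.87% and 0.0281%. Of the exonic bases of ANKRD37, CA9, EGLN2 and LDHB, 35.2%, 38.5%, 30.6% and 33.4% overlap other genes. Their counts, like that of ALDOA, are uncertain, since no source used here states how shared exons or strand were treated in counting.

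**Figure D3:**
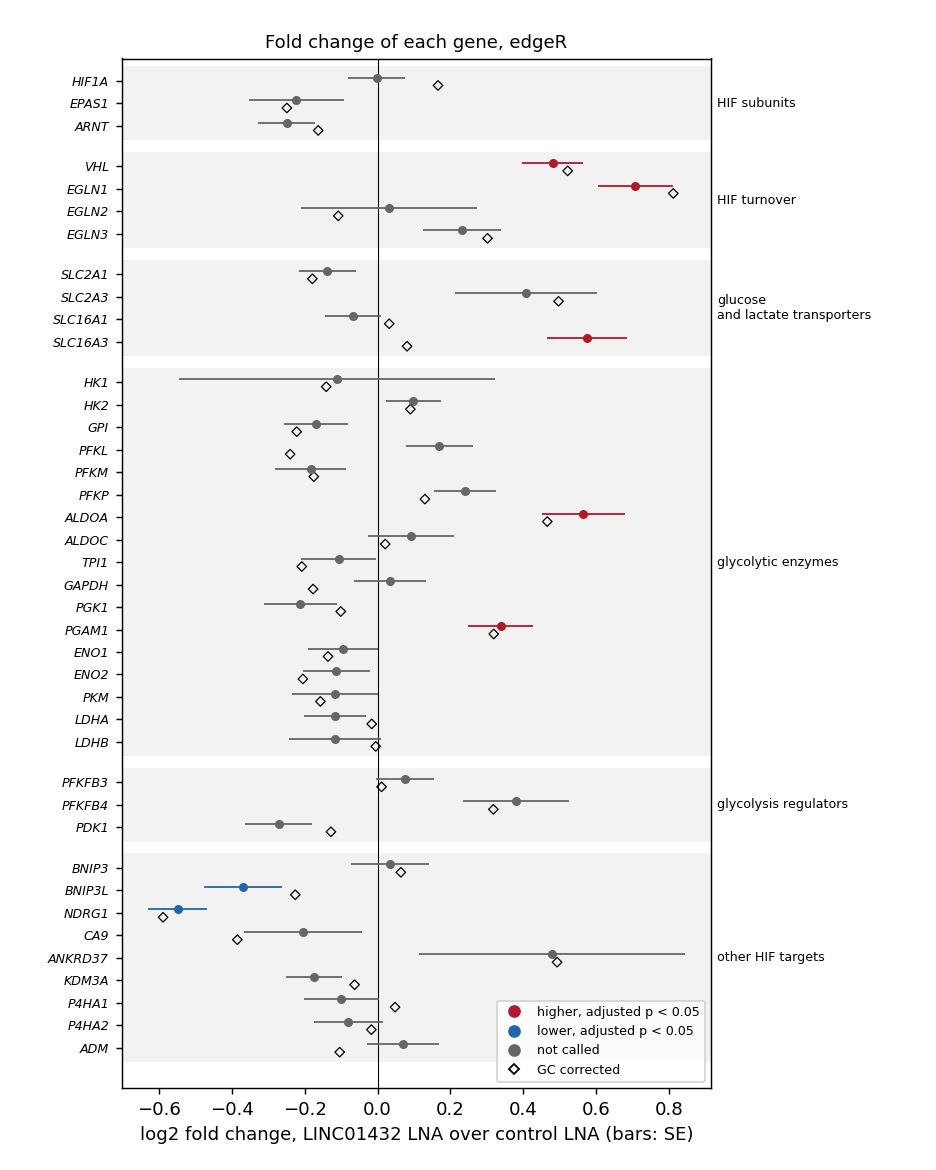
Log2 fold change of LINC01432 LNA over control LNA (x axis) for the 40 genes, with bars for the standard error of the edgeR fit and open diamonds for the value after GC correction. The 5 higher and 2 lower genes are coloured, and SLC16A3 moves from 0.57 to 0.08 with the correction.

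The regulators of glycolysis were not called. PFKFB3 and PFKFB4 make and remove fructose 2,6-bisphosphate, the allosteric activator of phosphofructokinase. PDK1 is a kinase that inhibits pyruvate dehydrogenase. PDK1 was at 57.7 and 60.4 CPM with control LNA and at 52.8 and 45.1 CPM with LINC01432 LNA. Its treated libraries were below both controls, but the log2 fold change of -0.27 (SE 0.09) did not pass (edgeR adjusted p = 0.0835). PFKFB4 was at 6.42 and 6.85 CPM against 7.60 and 9.59 CPM, also without overlap (log2 fold change 0.38, SE 0.14, adjusted p = 0.119). PFKFB3, at 6.18 CPM per kb in controls beside 1.09 for PFKFB4, was at 37.6 and 37.9 CPM against 39.4 and 40.2 CPM (log2 fold change 0.08, adjusted p = 0.622).

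HIF targets outside glycolysis included both called falls. They were 2 of 9 genes (22.2%), beside 4.37% of all tested genes called lower. With GC correction 1 of the 9 was called lower (11.1%, beside 4.39%). NDRG1 (ENSG00000104419, chr8:133237171-133302022), a stress- and hypoxia-induced protein, was at 77.0 and 76.5 CPM with control LNA and at 50.5 and 54.3 CPM with LINC01432 LNA. The groups did not overlap, and NDRG1 fell 1.46-fold, from 76.8 ± 0.299 to 52.4 ± 2.68 CPM (SD, n = 2; log2 fold change -0.55, SE 0.08, edgeR adjusted p = 0.00126). It remained called under each of 14 alternatives. BNIP3L (NIX, ENSG00000104765, chr8:26382898-26505636), a receptor for the removal of mitochondria, was at 13.6 and 14.02 CPM with control LNA and at 11.1 and 10.3 CPM with LINC01432 LNA. It fell 1.29-fold with an adjusted p of 0.0462 by edgeR (log2 fold change -0.37, SE 0.11). The call of BNIP3L held in 5 of 14 alternatives and was lost with the DESeq2 test (adjusted p = 0.143), limma-voom (0.0547), GC correction (log2 fold change -0.23, adjusted p = 0.174) and without control library 1 (-0.41, adjusted p = 0.253) or control library 2 (-0.36, adjusted p = 0.323), among others.

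The other 7 targets were not called. KDM3A, a histone demethylase, was at 93.0 and 95.3 CPM against 85.1 and 81.8 CPM, below both controls (log2 fold change -0.17, adjusted p = 0.181). The collagen prolyl hydroxylase subunits P4HA1 and P4HA2 had log2 fold changes of -0.10 and -0.08, and BNIP3, the paralog of BNIP3L, of 0.03. ADM, the secreted peptide adrenomedullin, was at 21.6 and 25.6 CPM against 24.7 and 24.8 CPM, within the spread of the controls. CA9, a surface carbonic anhydrase that HIF strongly induces, was at 7.69 and 6.64 CPM against 5.31 and 7.09 CPM, with overlap (log2 fold change -0.20, adjusted p = 0.488). ANKRD37 had 19 to 42 counts per library, and its log2 fold change of 0.48 (adjusted p = 0.465) turned to -0.09 without LINC01432 LNA library 2.

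The glycolytic enzymes and the other HIF targets are set side by side here. The median log2 fold change was -0.11 for the 17 enzymes (range -0.21 to 0.56) and -0.10 for the 9 other targets (range -0.55 to 0.48), beside 0.01 for all tested genes. These medians were -0.005 and -0.147 without control library 2, and -0.136 and -0.063 with GC correction. Among the enzymes 7 values were positive and 10 negative; among the other targets 3 were positive and 6 negative. Both treated libraries lay above both controls for 5 enzymes and below for 6, while for the other targets 0 lay above and 4 below. Of all tested genes 28.2% lay above and 25.9% below. No test of the difference between the role groups was made, since genes of a list are not replicates.

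Isozyme shares differed between the groups in some families and overlapped in others. Shares are given as percent of the summed CPM per kb of a family, without GC correction. HK2 made up 99.2% to 99.4% of the hexokinases, ENO1 97.8% to 98.1% of the enolases and LDHA 97.3% to 97.9% of the lactate dehydrogenases in the 4 libraries. The phosphofructokinases were mixed: PFKP, the platelet form, held 43.6% and 43.3% with control LNA and 48.1% and 46.7% with LINC01432 LNA, whereas PFKM, the muscle form, went from 26.8% and 26.4% to values of at most 22.1%. ALDOA went from 70.8% and 73.1% of the aldolases to 78.6% and 77.6%, and ALDOC went from 28.1% and 25.9% to 20.4% and 21.4%. SLC16A3 held 10.7% and 11.3% of the monocarboxylate transporters in controls and 14.7% and 17.7% after LINC01432 LNA. In each of these 5 cases the groups did not overlap, as was so for the levels of 54.1% of all tested genes. Shares within a family depend on each other: the level of ALDOC itself overlapped between the groups (log2 fold change 0.09). SLC16A1, the main monocarboxylate transporter, went from 87.8% and 87.4% to 84.3% and 81.7%, also without overlap. With GC correction the log2 fold changes of SLC16A3 and SLC16A1 were close, at 0.08 and 0.03. Those of PFKP, PFKM and PFKL were then 0.13, -0.175 and -0.24, and those of ALDOA and ALDOC 0.47 and 0.02. The groups overlapped for P4HA1, at 63.4% and 67.2% of its pair with P4HA2 against 66.2% and 63.8%, and for PDK1, at 18.7% and 20.6% of its family against 20.5% and 18.6%. The shares of ALDOA and LDHB rest on counts with overlapping exons. So does that of PDK2 in the family of PDK1 (38.6% of the exonic bases of PDK2). An exact permutation test of 2 against 2 libraries cannot go below p = 0.333, so the shares are given without a test.

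**Figure D4:**
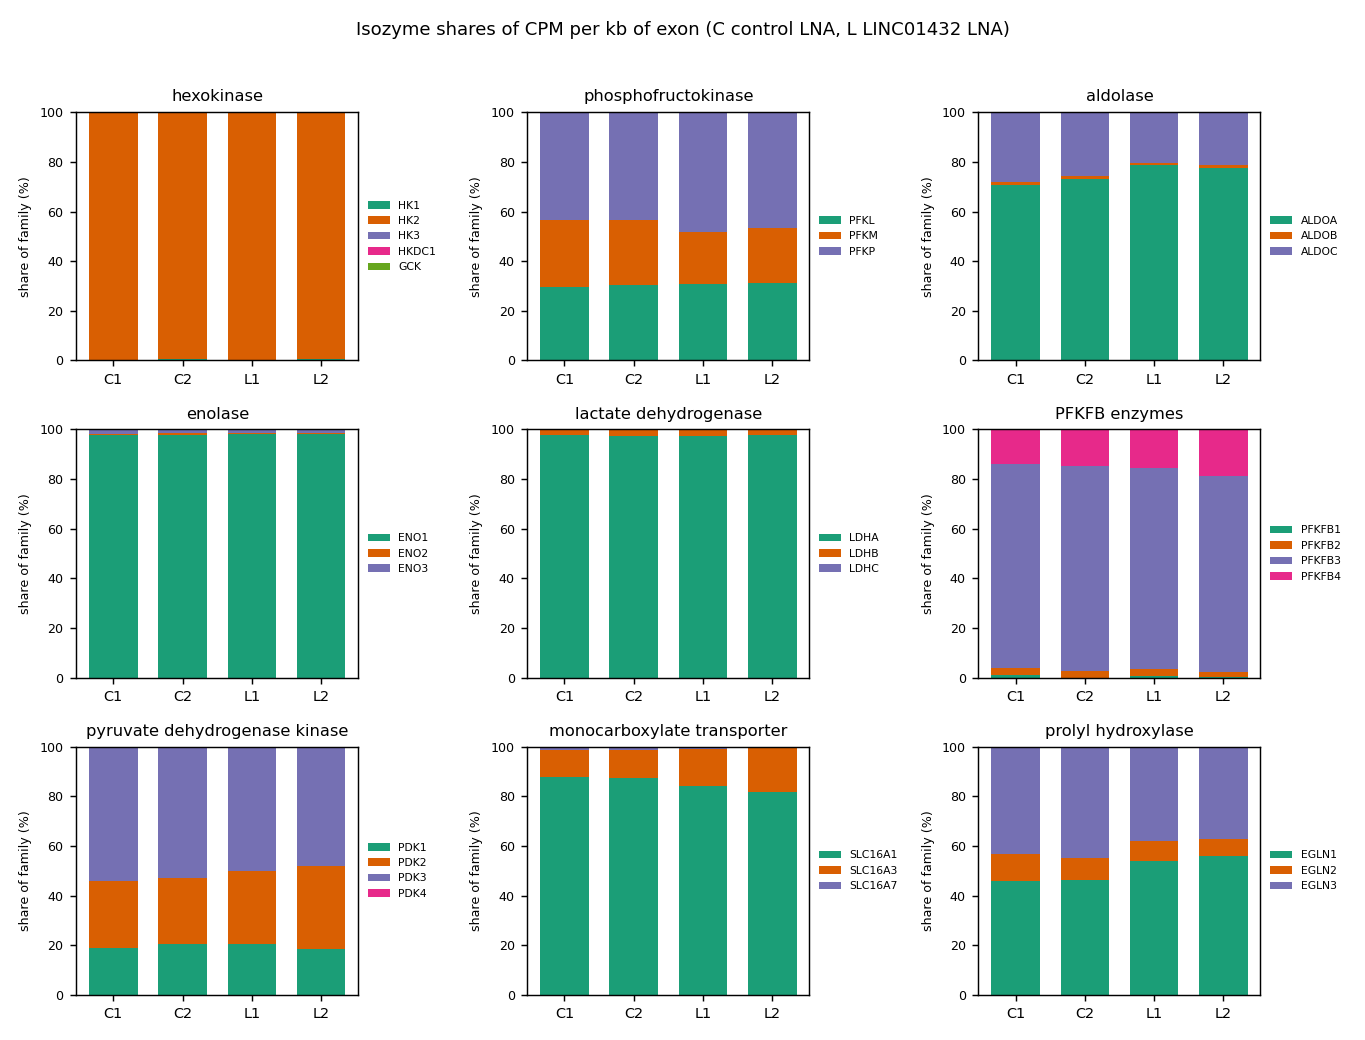
Share of each isozyme in the summed CPM per kb of its family (y axis, percent) in control LNA libraries 1 and 2 (C1, C2) and LINC01432 LNA libraries 1 and 2 (L1, L2). HK2, ENO1 and LDHA fill over 97% of their families in every library, while the PFKP, ALDOA, SLC16A3 and EGLN1 parts are larger in L1 and L2.

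Fold changes rose with GC content over all tested genes, and less clearly over the 40 members. The median log2 fold change ran from -0.14 in the lowest decile of tested genes by exon GC to 0.37 in the highest, and 14 members lay in the 8th and 9th deciles. Pearson's r of log2 fold change with GC was 0.22 over the 40 genes and 0.37 over 17060 tested genes with a known GC content, as descriptions across genes of the same libraries. With a GC correction 6 members were called, 4 higher and 2 lower, or 15.0% beside a background of 10.1% (5.7% higher and 4.39% lower). EGLN1, VHL, ALDOA and PGAM1 were higher (log2 fold changes 0.81, 0.52, 0.47 and 0.32) and NDRG1 and PFKL lower (-0.59 and -0.24).

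A wider list of 127 genes of the same pathways, none of them among the 40, gave 98 tested genes, of which 8 rose and 4 fell (12.2%, beside the background of 11.9%), with a median log2 fold change of 0.00. Among 41 further HIF targets tested, 4 rose and 1 fell (12.2%, near the background of 11.9%). KDM6B, a histone demethylase, rose from 33.7 ± 0.0713 to 49.5 ± 0.466 CPM (SD, n = 2; log2 fold change 0.55, edgeR adjusted p = 0.0012). The exons of KDM6B have a GC content of 61.5%, in the highest decile, and its log2 fold change after GC correction was 0.32 (edgeR adjusted p = 0.0246). DDIT4, an inhibitor of mTOR signalling, rose 1.34-fold, the secreted glycoprotein STC2 1.31-fold and VEGFA, the angiogenic growth factor, 1.26-fold. KDM4C, another histone demethylase, fell 1.27-fold (edgeR adjusted p = 0.0076 to 0.0378 for these 4 genes). Of the exonic bases of DDIT4 41.2% overlap other genes, so its count is uncertain. After GC correction VEGFA had a log2 fold change of 0.28 instead of 0.34 (adjusted p = 0.0545) and KDM4C of -0.22 instead of -0.34 (adjusted p = 0.112), and neither was called, nor was KDM4C by DESeq2 (adjusted p = 0.0845); with library totals as the scaling both were lost (adjusted p = 0.0506 and 0.0766). STC2 without LINC01432 LNA library 2 had a log2 fold change of 0.25 instead of 0.39. The calls of DDIT4, STC2, VEGFA and KDM4C were lost without control library 1 and also without control library 2. Over the leave-one-out fits their log2 fold changes ran from 0.342 to 0.468, 0.251 to 0.486, 0.252 to 0.388 and -0.435 to -0.284. Of 17 tested genes of HIF pathway control 1 changed (5.88%, beside the background of 11.9%). It was UBE2S, a ubiquitin-conjugating enzyme, which rose 1.37-fold (edgeR adjusted p = 0.00624). The call of UBE2S was likewise lost without control library 1 and without control library 2 (leave-one-out log2 fold changes 0.332 to 0.53). The number of calls in the wider list was 1 of 99 tested without control library 1 (beside 3.82% of all genes) and 3 without control library 2 (3.0% beside 5.27%). It was 41 without LINC01432 LNA library 1 (41.4% beside 26.4%) and 30 without LINC01432 LNA library 2 (30.6% beside 21.6%). KDM6B remained called in all 4 of these fits.

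Other isozymes and side steps of glycolysis included 2 rises and 2 falls among 20 tested. These 4 of 20 genes stand beside a background of 11.9% of all tested genes called (7.5% higher and 4.37% lower). ENO3, the muscle enolase, was at 87.0 and 80.4 CPM with control LNA and at 63.9 and 69.7 CPM with LINC01432 LNA, and fell 1.25-fold (log2 fold change -0.33, SE 0.08, edgeR adjusted p = 0.0281). SLC16A7 (MCT2), a high-affinity carrier of lactate and pyruvate, fell 1.73-fold from 7.16 ± 0.902 to 4.19 ± 0.935 CPM (SD, n = 2; edgeR adjusted p = 0.0151). MINPP1, an inositol phosphate phosphatase that can also remove a phosphate from bisphosphoglycerate, rose 1.63-fold and SLC2A5, the fructose transporter, 1.39-fold (adjusted p = 0.00602 and 0.0433). The 4 calls were lost without control library 1 (adjusted p = 0.0892 to 0.459), and those of ENO3 and SLC2A5 also without control library 2 (0.167 and 0.238). SLC2A5 was not called by DESeq2 (adjusted p = 0.178), with library totals as the scaling (0.0654) or after GC correction (0.0569), while its log2 fold change stayed between 0.437 and 0.485 in these and the leave-one-out fits.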

How the data were processed

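RNA-seq of 4 libraries was analysed from 1 table of whole-number counts per gene, deposited by the authors without normalization. Per the submitters' processing notes, bcl2fastq, STAR 2.7.11b, Subread, featureCounts 2.0.8 and Salmon 1.10.0 were used with GRCh38, with no role or order; no source used here names the annotation or the strand setting. The labels disagree on RNA selection: the design text names poly(A) selection and the protocol ribosomal RNA removal. The 92 spike-in and 5 transgene rows (1 to 11 counts per library) were left out.

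Ensembl IDs were matched to symbols by table (61481 matched), and positions, exon length, GC content and exon overlap from GENCODE 29 on GRCh38 (GC known for 17060 of 18680 tested genes and all members). In R 4.3.3, edgeR 4.0.16 was run on all genes: TMM, filterByExpr (minimum count 10, minimum total 15), quasi-likelihood F test with group as the only term, Benjamini-Hochberg adjusted p under 0.05. Standard errors were derived from the F statistic. The biological coefficient of variation was 7.13%. Tested on simulated counts of 18680 genes for this comparison, the step recovered 71% of 100 genes changed 2-fold and 91% of 100 changed 4-fold, with 2.41% false calls among those made. The simulated libraries shared the same dispersion trend and held no GC trend, so these rates need not hold for the real libraries. Changes below 2-fold, as in all members, were not simulated. For GC correction, log2 CPM was smoothed on exon GC in each library (lowess, span 0.3) and the trend entered as an offset. Alternatives were other normalizations (median of ratios, library totals) and filters, leaving out each library, a replicate block, DESeq2 1.42.0, limma-voom (limma 3.58.1), GC correction with and without the block, and adjusted p under 0.01.

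The 40 members, their role groups, the wider list, the tests and the alternatives were chosen with earlier results of these data known. Per-library values are given for called members, the 2 with the smallest p in each role group and the 5 highest per kb; others were added after their values were seen. Of the wider list, called genes are named, at most 4 per group by p, with KDM4C added after its value was seen. No library pair held identical values. Figures were drawn with matplotlib 3.10.9.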

Additional observations from a re-analysis of the deposited data

How the results depend on the processing

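Counts of calls moved with the library set and the error model. Leaving out 1 library gave 766 to 5228 called genes instead of 2218, 3 to 19 members instead of 7, and 1 to 41 genes of the wider list instead of 12, with 1 library's spread taken from the other pair. The median log2 fold change ranged from -0.164 to 0.038 for glycolytic enzymes and from -0.159 to -0.043 for other HIF targets. The replicate number as a block gave 3862 called genes (20.7%), 11 members (27.5%) and 27 genes of the wider list (27.6%). The within-group differences of both pairs correlated at 0.13 over genes, and the labels name no shared batch. The samples thus share a number, and no pairing was taken from it. GC correction with the block gave 3722 (19.9%), 13 (32.5%, 5 higher and 8 lower) and 24 (24.5%). At adjusted p under 0.01 there were 1000 called genes and 4 in the wider list. The cause of these shifts was not tested. PFKL turned from 0.17 to -0.24 with GC correction and -0.24 with the correction and the block. In the other normalizations, filters and tests the 3 counts stayed within 1.5 times. Depth limits HK1, ANKRD37, SLC2A3 and EGLN2, which had 8 to 93 counts per library.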

Other observations

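Pyruvate entry into mitochondria and the pentose phosphate pathway carry glucose carbon away from lactate. Of 12 tested genes of pyruvate entry 1 was called (8.33%, beside 11.9% of all tested genes), PDK3, a kinase that inhibits pyruvate dehydrogenase: it was at 55.6 and 51.6 CPM with control LNA and at 43.2 and 38.8 CPM with LINC01432 LNA, and fell 1.31-fold (log2 fold change -0.39, SE 0.09, edgeR adjusted p = 0.0149). The call of PDK3 was lost without control library 1 (-0.35, adjusted p = 0.267) or control library 2 (-0.45, adjusted p = 0.0691). PDK3 was the most abundant of its family per kb. It held 54.2% and 53.0% of the summed level in controls and 50.3% and 48.1% after LINC01432 LNA. PDK2 went from 27.1% and 26.4% to 29.3% and 33.2%. Of the exonic bases of PDK2 38.6% overlap other genes, so its count is uncertain.

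Of 8 tested genes of the pentose phosphate pathway 1 was called (12.5%), RPIA, which interconverts ribose and ribulose 5-phosphate. It was at 22.1 and 23.7 CPM with control LNA and at 27.9 and 33.7 CPM with LINC01432 LNA, and rose 1.35-fold (log2 fold change 0.43, SE 0.10, edgeR adjusted p = 0.0211). Without LINC01432 LNA library 2 the value of RPIA was 0.27, still called, and without control library 1 (0.36, adjusted p = 0.286) or control library 2 (0.47, adjusted p = 0.0741) the call was lost. The counts of both lists depended on the library set: 6 of 12 genes of pyruvate entry and 4 of 8 of the pentose phosphate pathway were called without LINC01432 LNA library 1, beside 26.4% of all tested genes. Without LINC01432 LNA library 2 they were 4 of 12 and 4 of 8, beside 21.6%, and without either control library 0 of each.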
